A study of Gossypium hirsutum with 6 samples.

Results

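The genes described here are the seed storage, oil body and late embryogenesis abundant (LEA) genes of upland cotton, 104 of the 72761 genes in a leaf expression table. The choice went by the protein description. Every gene entered whose description names a late embryogenesis abundant protein, a dehydrin, a desiccation-related protein, embryonic protein DC-8, a seed storage protein, a vicilin, a legumin or an oleosin.

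Poly-A RNA of Gossypium hirsutum leaf, a tetraploid with an A and a D subgenome, was sequenced in 6 libraries. There were 3 libraries from transgenic lines titled FPF1, after flowering promoting factor 1, and 3 from wild-type plants titled W10. The labels do not tell whether the transgenic lines carry more or less FPF1 activity; the design text of the series mentions mutants made with CRISPR as well as constitutive expression. Plant age, planting density, promoter and number of lines are also not in the labels, and nothing says that the replicates were separate plants, so a p below speaks only of the spread among these libraries, part of which may be technical.

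Storage proteins are the nitrogen reserve of the seed. Albumins of the 2S class, legumins (12S globulins) and vicilins are packed into vacuoles of the maturing embryo and broken down at germination, while oleosins coat the oil bodies that hold its lipid. LEA proteins and dehydrins are hydrophilic proteins that accumulate as the embryo dries, many of them first named from cotton embryos. Abscisic acid and the regulators ABI3, FUS3, LEC1 and LEC2 drive this programme in the seed, and some LEA genes are also active in leaves, often under water shortage.

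The annotation in the deposited table matched these names. The term lipid storage was attached to 20 of the 104 genes (19.2%, against 0.0756% of all rows), and embryo development ending in seed dormancy also to 20 (19.2%, against 1.32%). Response to abscisic acid was attached to 16 (15.4%, against 1.44%) and nutrient reservoir activity to 10 (9.62%, against 0.0921%).

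Levels are in FPKM, a fragment count divided by transcript length and by library size, so levels of different genes can be compared per length. Read counts were not analysed here and the depth behind each value is unknown. The summed FPKM was 909815 to 930017 in the transgenic libraries and 925736 to 933686 in the wild type, with 52646 to 53560 and 52037 to 53129 genes above 0. Of 88 listed photosynthesis genes, 86 were above 0 in at least 1 library, a mark that most genes expressed in any tissue also meet. Their summed level was 5527 to 6560 FPKM in the transgenic libraries and 7159 to 9527 FPKM in the wild type, with 2 genes called higher and 29 called lower of 80 tested. The shares called over all genes tested were 3.92% higher and 1.78% lower.

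Most expressed members followed either of 2 patterns, called here the leaf set and the seed set. Leaf-set genes stood at similar levels in all libraries, and seed-set genes were near 0 in the transgenic libraries and present in the wild type, at levels that depended on the wild-type library. In the transgenic libraries 1 to 3, 31, 33 and 30 of the genes reached 1 FPKM, against 55, 67 and 35 in wild type 1, 2 and 3. At 10 FPKM the counts were 14, 13 and 13 in the transgenic libraries, against 16, 33 and 14 in the wild type. Wild type 2 therefore held the most members at both levels, and wild type 3 lay close to the transgenic libraries. The map of all tested members by library shows both sets side by side.

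**Figure D1:**
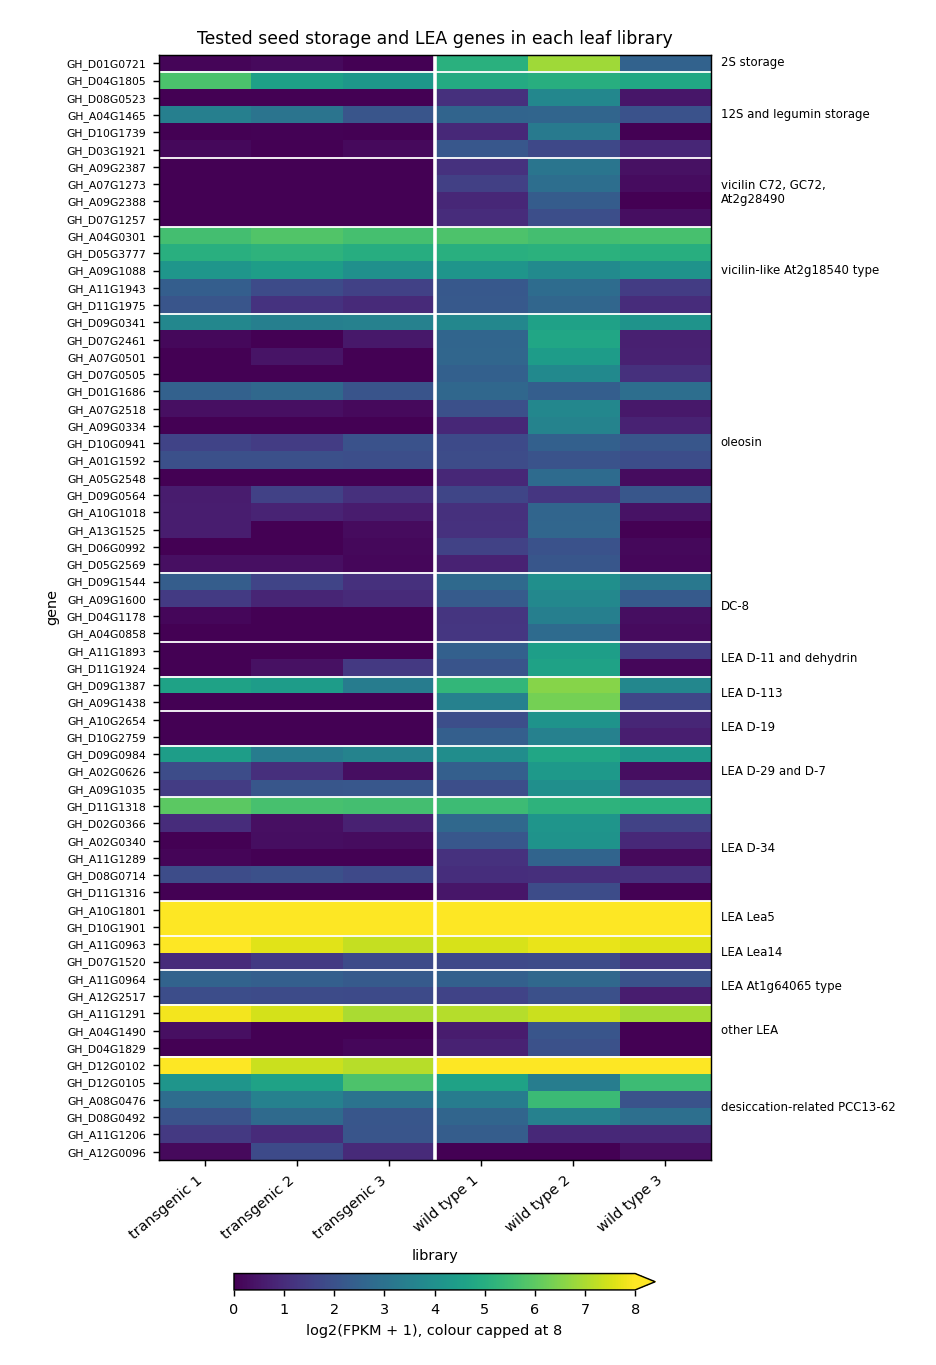
Level of the 64 tested members in each of the 6 leaf libraries, as log2(FPKM + 1), with the colour scale capped at 8; rows are genes grouped by protein type and columns are libraries, transgenic left of the white line and wild type right of it. Most 2S, legumin, vicilin C72, oleosin, DC-8 and D-type LEA rows are dark in the transgenic columns and brightest in wild type 2. The Lea5 rows and some Lea14, At2g18540-type and desiccation-related rows are bright in all columns.

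Over all 104 members, before any filter, 19 were listed at 0 in the 3 transgenic libraries and above 0 in at least 1 wild-type library (18.3%, against 2.74% of all rows). The opposite pattern, 0 in the wild type and above 0 in a transgenic library, was seen for 4 (3.85%, against 2.80%). Another 11 members were listed at 0 in all 6 libraries. Wild type 2 was the highest of the 6 libraries for 56 members (53.8%, against 15.1% of all rows).

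The difference between the groups was tested with limma on log2(FPKM + 1), a scale that understates the change of genes near 0. Genes whose mean reached 1 FPKM in either group were tested, and a gene was called where the Benjamini-Hochberg adjusted p was under 0.05. The filter kept 64 members: 32 through both groups, 31 through the wild type only and 1 through the transgenic libraries only, so for 32 of them a difference was built into the selection. Of the 64, 3 were called, 2 lower and 1 higher in the transgenic libraries, against 5.70% of the 43837 genes tested (1.78% lower and 3.92% higher). An unadjusted p under 0.05 was reached by 26 members, against 24.0% of all genes tested, but 19 of the 26 passed the filter through the wild type only. Among the 32 that passed through both groups, 7 reached it (21.9%), 5 lower and 2 higher, against 22.7% of the genes of the whole table that passed through both.

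The number of called members turned on single libraries. It was 18, all lower, without wild type 3, and 5, all lower, without wild type 2. It was 1 without transgenic 1, and limma called 0 without transgenic 2, transgenic 3 or wild type 1. In those refits without a call, 17, 21 and 20 members had a limma unadjusted p under 0.05. Calls over all genes tested also varied between the refits, from 289 to 2552. The shares of all genes at either mark in each refit are not given here.

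Among the 32 members that reached a mean of 1 FPKM in both groups, the median difference was -0.14 on the log2 scale, against 0.07 for the 40608 genes of the whole table that did so. The 3 transgenic libraries lay below all 3 wild-type libraries for 4 of these 32 and above them for 2. The shares over those 40608 genes were 9.24% and 19.6% (9.51% and 20.6% over all genes tested).

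The 2S albumin gene GH_D01G0721, a sulfur-rich storage protein on chromosome D01, had the highest wild-type mean of the seed set. It had 0.0794, 0.163 and 0 FPKM in the transgenic libraries, against 33.0, 116 and 4.69 FPKM in wild type 1, 2 and 3. All transgenic values lay below all wild-type values, and the wild-type values themselves spanned more than 10-fold. The log2 difference was -4.71 (standard error 0.947, limma adjusted p = 0.0364). The call was lost without any 1 of the transgenic libraries or without wild type 1, at adjusted p = 0.0815 to 0.134. The other 3 genes of 2S type were not tested; their highest value was 0.303 FPKM, in wild type 2.

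Legumins, the main 12S globulins, followed the same order. Legumin A (GH_D08G0523) was listed at 0 in all transgenic libraries and at 1.14, 12.1 and 0.408 FPKM in wild type 1, 2 and 3 (log2 difference -1.77, adjusted p = 0.208). Legumin B (GH_D10G1739) had 0, 0.0441 and 0 FPKM in the transgenic libraries, against 0.913, 8.75 and 0 FPKM in the wild type (adjusted p = 0.304). For legumin B the groups overlapped at 0 through wild type 3. None of the 5 tested genes of the 12S and legumin type was called by limma, and 2 had an unadjusted p under 0.05, both of which passed the filter through the wild type only.

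The genes described as 12S protein CRD-like, after an Arabidopsis cruciferin, did not behave as 1 group. GH_D04G1805 had 51.9, 22.3 and 18.0 FPKM in the transgenic libraries, against 28.9, 31.5 and 26.5 FPKM in the wild type (log2 difference -0.06, standard error 0.349, adjusted p = 0.932). Its partner on A04, GH_A04G1465, had 9.95, 7.46 and 3.32 FPKM in the transgenic libraries, against 4.97, 5.12 and 3.08 FPKM in the wild type (0.47, adjusted p = 0.450). Both were clearly present in every leaf library and both groups overlapped. GH_D03G1921, chosen after its values were seen, had 0.117, 0 and 0.161 FPKM in the transgenic libraries, against 3.49, 2.32 and 0.815 FPKM in the wild type (-1.46, adjusted p = 0.0512). In that gene wild type 1, not wild type 2, was the highest.

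Vicilins also fell mostly into a seed and a leaf set. The cotton vicilin gene GC72-A (GH_A09G2387) was listed at 0 in all transgenic libraries and at 1.21, 7.68 and 0.278 FPKM in wild type 1, 2 and 3 (log2 difference -1.54, adjusted p = 0.197). The next identifier on A09, vicilin C72 (GH_A09G2388), was at 0 in the transgenic libraries and at 0.852, 4 and 0 FPKM in the wild type. Together with the At2g28490-type pair, the 4 tested genes of this type summed to 0 FPKM in each transgenic library, against 4.96, 20.9 and 0.702 FPKM in wild type 1, 2 and 3. No gene of this type was called by limma, and 3 of 4 had an unadjusted p under 0.05, but all 4 passed the filter through the wild type only.

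Among the vicilin-like genes of the At2g18540 type, named after an Arabidopsis locus, the most abundant were leaf-set genes and varied little. GH_A04G0301 had 48.4, 55.4 and 49.2 FPKM in the transgenic libraries, against 53.2, 48.1 and 49.5 FPKM in the wild type (log2 difference 0.02, standard error 0.10, adjusted p = 0.930). GH_D05G3777 had 32.4, 34.8 and 30.7 FPKM in the transgenic libraries, against 32.4, 33.8 and 31.3 FPKM in the wild type (0.01, standard error 0.0949, adjusted p = 0.978). The groups overlapped for all 5 genes of this type, whose summed level was 105.7, 114.7 and 97.96 FPKM in transgenic leaves and 109.8, 106.5 and 99.9 FPKM in wild-type leaves. Both log2 differences turned negative under other scalings of the libraries. Limma called none of the 5, and 0 had an unadjusted p under 0.05. The less abundant GH_A11G1943 and GH_D11G1975 varied more, from 1.70 to 6.14 and from 0.934 to 5.26 FPKM. Both were highest in wild type 2 and had the wild-type order 2, 1, 3.

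Oleosins, the structural proteins of the oil body, made up 22 members, 15 of them tested. Limma called none, while 7 had an unadjusted p under 0.05. Of the 15, 10 passed the filter through the wild type only, 6 of those 7 among them, and for these a lower transgenic mean was part of the selection. Oleosin 1 (GH_D07G0505) was listed at 0 in the 3 transgenic libraries and at 4.48, 12.8 and 1.15 FPKM in wild type 1, 2 and 3 (log2 difference -2.45, standard error 0.595, adjusted p = 0.0593). The oleosin 1-like gene GH_A07G0501 had 0, 0.345 and 0 FPKM in the transgenic libraries, against 5.18, 20.5 and 0.659 FPKM in the wild type (-2.45, adjusted p = 0.125). In both genes the groups did not overlap, and wild type 3 was the lowest of the wild type.

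The oleosin genes of the 18.2 kDa name lay on A07 and D07 and had the same profile. GH_D07G2461 had 0.118, 0 and 0.440 FPKM in the transgenic libraries, against 5.12, 25.4 and 0.622 FPKM in the wild type (log2 difference -2.45, adjusted p = 0.150). GH_A07G2518 had 0.254, 0.263 and 0.154 FPKM in the transgenic libraries, against 2.89, 12.01 and 0.425 FPKM in the wild type (-1.77, adjusted p = 0.184). Transgenic values stayed below the lowest wild-type value in both genes, narrowly so for wild type 3.

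Other oleosin genes were also present in the transgenic libraries. The oleosin 16.4 kDa gene on D09, GH_D09G0341, had 12.1, 9.98 and 10.3 FPKM in the transgenic libraries, against 12.2, 23.0 and 16.1 FPKM in the wild type (log2 difference -0.58, standard error 0.214, adjusted p = 0.159). The transgenic values of this gene lay below all its wild-type values, narrowly so for wild type 1 (limma unadjusted p = 0.0295). Its A09 partner GH_A09G0334, chosen after its values were seen, was listed at 0 in the transgenic libraries and at 0.838, 10.9 and 0.684 FPKM in the wild type. One copy of the pair was thus present in all libraries and the other in the wild type only. The 16 kDa-like gene GH_D01G1686 overlapped between the groups, with 4.63, 5.56 and 3.26 FPKM in transgenic leaves, against 5.41, 4.29 and 6.41 FPKM in the wild type (-0.23, adjusted p = 0.549).

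Embryonic protein DC-8, a LEA protein first described in carrot embryos, was encoded by 4 members. For each of the 4 the transgenic libraries lay below all wild-type libraries, against 9.51% of all genes tested. GH_D09G1544 had 4.11, 2.13 and 1.17 FPKM in the transgenic libraries, against 5.63, 14.8 and 8.14 FPKM in the wild type (log2 difference -1.60, standard error 0.398, adjusted p = 0.0631). GH_A09G1600 had 1.58, 0.784 and 0.944 FPKM in the transgenic libraries, against 3.89, 12.3 and 3.85 FPKM in the wild type (-1.71, standard error 0.401, adjusted p = 0.0536). These 2 genes were present in both groups and were the members above 1 FPKM in both that came closest to a call without reaching it. GH_D04G1178 had 0.0954, 0 and 0 FPKM in the transgenic libraries, against 1.36, 9.98 and 0.223 FPKM in the wild type (-1.62, adjusted p = 0.223). Limma called none of the 4, and 3 had an unadjusted p under 0.05, against 24.0% of all genes tested. Of the 4, 2 passed the filter through the wild type only, and for these a lower transgenic mean was part of the selection.

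The LEA genes with cotton D names include the dehydrins, which carry repeated lysine-rich motifs. The D-11-like dehydrin-type gene GH_A11G1893 was listed at 0 in all transgenic libraries and at 4.49, 21.3 and 1.76 FPKM in wild type 1, 2 and 3 (log2 difference -2.80, standard error 0.674, adjusted p = 0.0579). The gene described as dehydrin, GH_D11G1924, had 0, 0.297 and 1.52 FPKM in the transgenic libraries, against 3.25, 23.6 and 0.109 FPKM in the wild type (-1.72, adjusted p = 0.348). In the second gene wild type 3 lay below transgenic 2 and 3, so the groups overlapped.

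D-113 genes encode a LEA class first isolated from cotton embryos. The A09 copy, GH_A09G1438, was listed at 0 in the transgenic libraries and at 10.4, 79.3 and 2.29 FPKM in wild type 1, 2 and 3 (log2 difference -3.85, standard error 1.00, adjusted p = 0.0707). The D09 copy, GH_D09G1387, chosen after its values were seen, had 23.2, 20.5 and 9.26 FPKM in the transgenic libraries, against 38.4, 93.2 and 11.9 FPKM in the wild type (-1.05, adjusted p = 0.393). Both copies were highest in wild type 2 and lowest of the wild type in wild type 3, but the D copy was also present in the transgenic libraries.

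The D-19 gene GH_A10G2654, of the Em class of LEA proteins, was listed at 0 in the transgenic libraries and at 2.77, 16.2 and 0.800 FPKM in wild type 1, 2 and 3 (log2 difference -2.29, adjusted p = 0.114). The D-29-like gene GH_A02G0626 had 2.59, 1.11 and 0.234 FPKM in the transgenic libraries, against 4.42, 18.9 and 0.226 FPKM in the wild type (-1.27, adjusted p = 0.450). The D-19 groups did not overlap, whereas wild type 3 was the lowest of all 6 libraries for the D-29-like gene.

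The D-34 group, related to seed maturation proteins, had members with differences of opposite sign. GH_D08G0714 was called higher, with 2.61, 2.90 and 2.42 FPKM in the transgenic libraries, against 1.07, 1.12 and 1.18 FPKM in the wild type (log2 difference 0.78, standard error 0.157, adjusted p = 0.0362). The groups did not overlap and the wild-type libraries were close together; the call was lost without any 1 of the 6 libraries (adjusted p = 0.0568 to 0.143), while the difference stayed at 0.73 to 0.82. GH_D11G1318, at a higher level, had 62.7, 49.976 and 47.7 FPKM in the transgenic libraries, against 43.8, 35.1 and 32.9 FPKM in the wild type (0.51, standard error 0.151, adjusted p = 0.0973). GH_A02G0340 lay the other way, with 0, 0.237 and 0.203 FPKM in the transgenic libraries, against 3.46, 16.4 and 0.875 FPKM in the wild type (-2.20, adjusted p = 0.119).

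**Figure D2:**
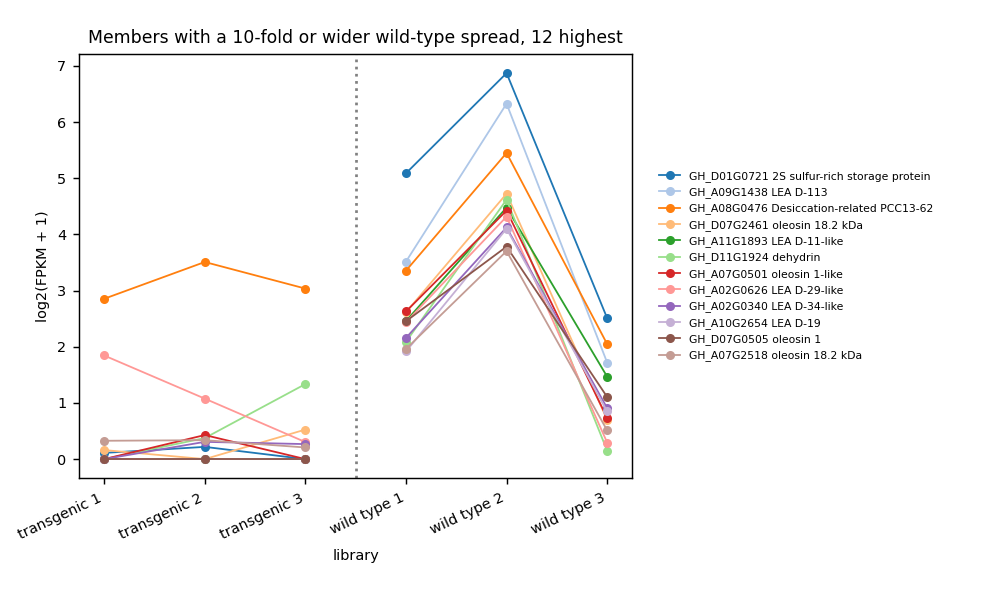
Level of 12 members in each library as log2(FPKM + 1), for the 12 of highest mean among the members whose wild-type libraries spanned 10-fold or more; transgenic libraries are left of the dotted line and wild-type libraries right of it, and lines only join the values of 1 gene within a group. All 12 peak in wild type 2 and are lowest of the wild type in wild type 3, and 10 of them stay below 2 FPKM in every transgenic library.

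The Lea5 pair held the most abundant transcripts of the leaf. Lea5-A (GH_A10G1801) ranked 1 in each of the 6 libraries, with 20683, 24473 and 17854 FPKM in the transgenic libraries, against 18993, 18368 and 24480 FPKM in the wild type (log2 difference 0.03, standard error 0.192, adjusted p = 0.948). Lea5-D (GH_D10G1901) had 7182, 8528 and 5548 FPKM in the transgenic libraries, against 4343, 5153 and 6115 FPKM in the wild type (0.44, standard error 0.208, adjusted p = 0.250). It ranked 2 in each transgenic library and 9, 4 and 3 in the wild type. The groups overlapped for both copies, and together they made up 2.57 to 3.55% of the summed FPKM in the transgenic libraries and 2.499 to 3.30% in the wild type. The sign of the Lea5-A difference turned negative under 2 other scalings of the libraries.

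Other LEA genes were also leaf genes without a call. Lea14-A (GH_A11G0963), of a LEA class with a folded domain, had 314, 199.8 and 156 FPKM in the transgenic libraries, against 182, 211 and 192 FPKM in the wild type (log2 difference 0.14, adjusted p = 0.773). The next identifier on A11, GH_A11G0964 of the At1g64065 type, had 4.82, 4.35 and 3.78 FPKM in the transgenic libraries, against 4.46, 5.54 and 3.02 FPKM in the wild type (0.02, adjusted p = 0.972). GH_A12G2517, of the same type, had 2.71, 2.56 and 2.47 FPKM in the transgenic libraries, against 2.08, 2.86 and 0.548 FPKM in the wild type (0.44, adjusted p = 0.458). Wild type 3 was the lowest library in that gene, and the groups overlapped for all 3 genes. The LEA 3-like gene GH_A11G1291, chosen after its values were seen, had 229, 179 and 126 FPKM in the transgenic libraries, against 138, 162 and 124 FPKM in the wild type (0.30, adjusted p = 0.449).

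Desiccation-related proteins of the PCC13-62 type are named from a resurrection plant, in which the protein accumulates during drying. The member with the smallest p of all was among them: GH_D12G0102 had 249.9, 163 and 141 FPKM in the transgenic libraries, against 706, 609 and 386 FPKM in the wild type. The groups did not overlap, and the mean was 185 ± 57.8 FPKM in the transgenic libraries and 567 ± 164 FPKM in the wild type (SD, n = 3 each). The log2 difference was -1.61 (standard error 0.283, limma adjusted p = 0.0250). The call was lost without transgenic 2 (adjusted p = 0.115), transgenic 3 (0.0818) or wild type 1 (0.0971), and the difference then stayed at -1.55 to -1.43. Its wild-type order differed from that of the seed set, since wild type 1 was the highest.

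A nearby identifier, GH_D12G0105, had 17.2, 23.3 and 52.9 FPKM in the transgenic libraries, against 23.4, 9.56 and 43.4 FPKM in the wild type. Its log2 difference was 0.35 (standard error 0.571, limma adjusted p = 0.749). GH_A08G0476 had 6.23, 10.4 and 7.197 FPKM in the transgenic libraries, against 9.22, 42.7 and 3.13 FPKM in the wild type (-0.48, adjusted p = 0.738). GH_A12G0096 was the 1 member tested through the transgenic libraries only, with 0.143, 2.44 and 0.921 FPKM there, against 0, 0 and 0.253 FPKM in the wild type (0.86, adjusted p = 0.236). The groups overlapped in all 3, and without wild type 2 the difference of GH_A08G0476 turned to 0.43.

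**Figure D3:**
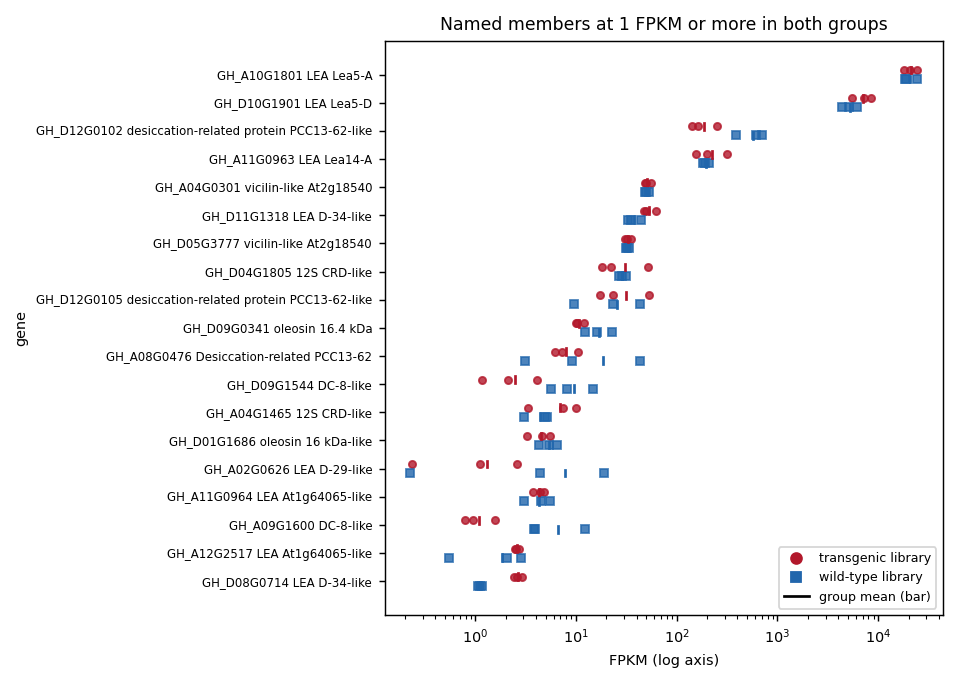
FPKM on a log axis for the named members whose mean reached 1 FPKM in both groups, transgenic libraries as red circles above wild-type libraries as blue squares, with a bar at each group mean. GH_D12G0102, both DC-8-like genes and, narrowly, GH_D09G0341 have all red points left of all blue points. GH_D11G1318 and GH_D08G0714 have them right of the blue points, and the Lea5, Lea14 and At2g18540-type genes overlap.

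The spread within the wild type was itself a pattern of the seed set. Of the 63 members with a wild-type mean of at least 1 FPKM, 31 spanned 10-fold or more between the highest and the lowest wild-type library (49.2%), against 463 of the 41658 other genes at that level (1.11%). All 31 had the order wild type 2, then 1, then 3, against 62.0% of the other 463. Wild type 2 exceeded wild type 1 by a median of 4.70-fold in these 31 (1.55 to 13.0), and wild type 1 exceeded wild type 3 by 6.08-fold in the 25 with a value above 0 there, while the medians over all genes tested were 1.006 and 1.016. Summed over the 31, the level was 11.1, 13.8 and 10.8 FPKM in the transgenic libraries, against 112, 521 and 20.4 FPKM in wild type 1, 2 and 3. Of these 31, 29 passed the filter through the wild type only, so a higher wild-type mean was built into the set. The 31 were chosen by their wild-type spread, so wide ratios between wild-type libraries were built in as well. That choice did not fix which wild-type library was highest.

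These 31 genes were 10 oleosins, 2 DC-8-like genes, 4 vicilins, 2 legumins, the 2S albumin, 1 desiccation-related gene and LEA genes of the D-11 and dehydrin, D-19, D-29, D-34, D-113 and unnumbered types. By subgenome, 18 lay on A and 13 on D chromosomes, among 54 A and 50 D members in all. In leaf RNA fewer cells of a type and less RNA per cell cannot be told apart, and labels that could separate the wild-type libraries, such as plant, leaf position or collection day, are not given.

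**Figure D4:**
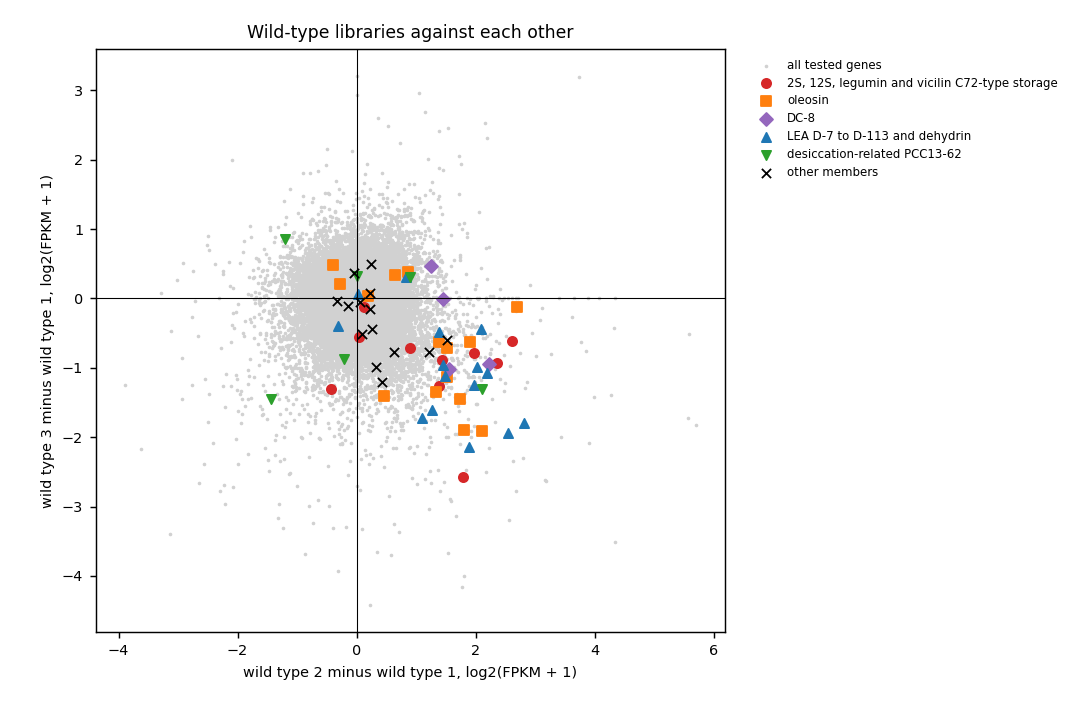
Difference of wild type 2 from wild type 1 (horizontal) and of wild type 3 from wild type 1 (vertical), both in log2(FPKM + 1), for all tested genes in grey and for the tested members by type in colour. Storage, oleosin, DC-8 and D-type LEA members lie mostly in the lower right, higher in wild type 2 and lower in wild type 3. The other members are mixed. The Lea5 genes lie near the centre of the grey cloud, GH_A08G0476, GH_A04G1490 and GH_D04G1829 in the lower right, and GH_D12G0105 in the upper left.

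A and D copies could be paired by chromosome number and description for 25 pairs, 15 of them with both copies tested. In 5 of the 15 pairs both copies passed the filter through both groups, and in 3 of these 5 the copies had the same sign of difference. In the other pairs at least 1 copy passed through the wild type only, which fixed its sign. Reads of near-identical copies may be shared between identifiers, and how the authors assigned such reads is not given in the sources used here. In several pairs 1 copy carried nearly the whole signal: the A01 partner of the 2S albumin, GH_A01G0724, was at 0 in the transgenic libraries and at 0.115, 0.271 and 0 FPKM in the wild type, and the A08 partner of legumin A at 0, 0.0396 and 0 FPKM in wild type 1, 2 and 3.

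**Figure D5:**
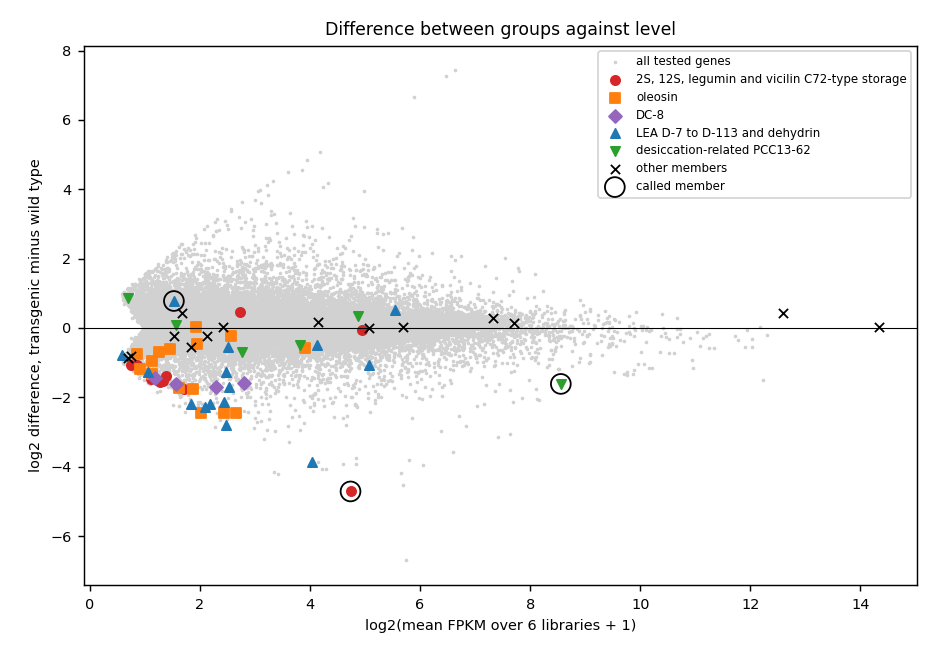
Log2 difference, transgenic minus wild type, against log2(mean FPKM over the 6 libraries + 1), for all tested genes in grey and for the 64 tested members by type in colour, with rings around the 3 called members. Most storage, oleosin, DC-8 and D-type LEA points lie below 0, and members at the highest levels lie near 0.

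Genes outside the list with the most similar profile were sought over the 6 libraries by the Pearson correlation with the mean of the 12 most abundant wide-spread members. That mean was 0.44, 0.52 and 0.47 in the transgenic libraries, against 2.72, 4.74 and 1.08 in wild type 1, 2 and 3, in log2(FPKM + 1). The 10 most similar of 41658 genes had r of 0.996 to 0.999, a description over 6 libraries of which 3 carry the pattern. They included an aldose reductase-like gene (GH_A13G0073), both copies of a glucose and ribitol dehydrogenase homolog (GH_D08G2384 and GH_A08G2380), a sucrose-binding protein-like gene (GH_A12G0034) and a peroxygenase-like gene (GH_A09G0778). The peroxygenase, of the caleosin family of oil body proteins, was listed at 0 in the transgenic libraries and at 2.11, 12.1 and 0.370 FPKM in the wild type. The uncharacterized genes GH_D09G2181 and GH_D05G3111 were also at 0 in the transgenic libraries. Others were present there. GH_A01G2367, uncharacterized, had 18.0, 18.7 and 18.6 FPKM in the transgenic libraries, against 29.3, 40.9 and 20.9 FPKM in the wild type. A cystathionine gamma-synthase gene (GH_D04G0481) and a receptor kinase gene (GH_D01G0442) were likewise above 0 in every transgenic library. The adjusted p of these 10 genes ran from 0.0850 to 0.220.

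Seed genes outside the list included some with the seed-set profile. Of 30 tested, limma called 0 and 8 had an unadjusted p under 0.05; wild type 2 was the highest library for 10 of them. The steroleosin-type 11-beta-hydroxysteroid dehydrogenase genes GH_A03G0666 and GH_D03G1283, chosen after their values were seen, were listed at 0 in the transgenic libraries. They stood at 0.317, 4.10 and 0 FPKM and at 0.313, 3.75 and 0.0503 FPKM in wild type 1, 2 and 3. The summed level of this seed list was 1685 to 2598 FPKM in the transgenic libraries and 1669 to 2821 FPKM in the wild type, most of it from 21 kDa seed protein-like genes such as GH_A10G2374 at 1143, 1048 and 795 FPKM in the transgenic libraries, against 992, 713 and 640 FPKM in the wild type.

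The ABI3- and FUS3-like regulators of embryo maturation were at or near 0. Of 8 genes described as ABI3-, FUS3- or LEC-type B3 factors, 1 was tested, a LEC2-like gene with 1.08, 0.994 and 0.992 FPKM in the transgenic libraries, against 0.359, 0.752 and 0.613 FPKM in the wild type (GH_A09G0915, adjusted p = 0.295). The ABI3-like genes GH_A07G1687 and GH_D07G1687 were at 0 in the transgenic libraries and in wild type 3, and at 0.272 and 0.399 FPKM in wild type 2. The FUS3-like gene GH_D07G2550 was at 0 in the transgenic libraries and at 0.263, 0.374 and 0 FPKM in the wild type. These values are too low for the test, and the ABI3- and FUS3-like values are highest in wild type 2. In a wider list of seed regulators, which adds ABI5-, WRI1- and AFP-type genes, 3 of 38 tested genes were called higher and 0 lower, with 13 at an unadjusted p under 0.05. Over all genes tested 3.92% were called higher and 1.78% lower. That list summed to 949 to 1357 FPKM in the transgenic libraries and 934 to 1016 FPKM in the wild type.

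The genes of abscisic acid signalling were tested in part: 16 of 33 listed receptors, 20 of 23 protein phosphatases 2C, 25 of 28 SnRK2 kinases and 26 of 32 ABI5-like and AREB factors reached the filter. Of the 16 receptors, 2 PYL9-like genes were called higher, where the share over all genes tested was 3.92%. The first, GH_D08G1529, had 87.5, 85.2 and 75.5 FPKM in the transgenic libraries, against 49.0, 48.0 and 52.5 FPKM in the wild type (log2 difference 0.72, adjusted p = 0.0126). The second was GH_A08G1516 (0.60, adjusted p = 0.0318). The other tested PYL9-like genes, GH_A11G0999 and GH_D11G1029, stood at -0.34 and -0.12 without a call. The median log2 difference of the 16 tested receptors was -0.004. Limma called 0 of 20 protein phosphatases 2C and 0 of 25 SnRK2 kinases, with 6 and 7 at an unadjusted p under 0.05. One of 26 ABI5-like and AREB factors was called higher, GH_A05G2038 with 83.5, 75.2 and 60.6 FPKM in the transgenic libraries, against 44.9, 46.1 and 37.4 FPKM in the wild type (0.75, adjusted p = 0.0337).

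A synthesis gene and a breakdown gene of the hormone were both called higher, from lists of which 5 of 14 and 6 of 20 genes were tested. The share called higher over all genes tested was 3.92%. NCED3-like GH_A01G0365, for the cleavage step of abscisic acid synthesis, had 7.59, 11.3 and 7.49 FPKM in the transgenic libraries, against 3.81, 3.63 and 1.59 FPKM in the wild type (log2 difference 1.32, adjusted p = 0.0397; 1 of 5 tested). The 8'-hydroxylase gene GH_A13G0397 had 5.05, 6.24 and 7.397 FPKM in the transgenic libraries, against 2.26, 2.74 and 1.71 FPKM in the wild type (1.16, adjusted p = 0.0196; 1 of 6 tested). None of these called genes had the wild-type spread of the seed set. The median log2 difference was -0.03 over the 5 tested NCED genes and 0.12 over the 6 tested 8'-hydroxylase genes.

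Raffinose-family sugars accumulate with LEA proteins in drying seeds. Of 24 tested galactinol, raffinose and stachyose synthase genes, 3 were called lower and 0 higher, with 7 at an unadjusted p under 0.05. Among all genes tested 1.78% were called lower and 3.92% higher. GH_D01G1405 had 288, 211 and 166 FPKM in the transgenic libraries, against 542, 408 and 548 FPKM in the wild type (log2 difference -1.19, adjusted p = 0.0281). GH_A01G1280 (-1.001) and GH_A08G1014 (-1.61) were the others. All 3 were described as probable galactinol--sucrose galactosyltransferases, and no galactinol synthase or stachyose synthase gene was called. Any role of these genes in seeds was not tested. Among genes of oil synthesis and vacuolar sorting, limma called 0 of 13 diacylglycerol acyltransferases and 0 of 21 vacuolar sorting and processing genes, with 4 and 5 at an unadjusted p under 0.05. It also called 0 of 9 peroxygenases, with 3 at an unadjusted p under 0.05, and left the 1 tested oil body-associated gene, GH_A09G2248, uncalled at 0, 0.203 and 0 FPKM in the transgenic libraries, against 0.862, 3.55 and 0 FPKM in the wild type (adjusted p = 0.308).

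Markers of other tissues were set beside the wild-type order of the seed set. The order wild type 2, 1, 3 was seen for 5 of 39 tested pollen and anther genes, 8 of 38 floral genes, 16 of 64 fibre and trichome genes, 2 of 14 secondary wall genes and 1 of 80 photosynthesis genes, against 44 of the 64 tested members and 26.8% of all genes tested. Among the members that passed through both groups it was 14 of 32. It was also seen for 13 of 30 other seed genes and 12 of 38 seed regulators. It was seen for 13 of 20 protein phosphatases 2C, 11 of 25 SnRK2 kinases, 9 of 26 ABI5-like and AREB factors, 3 of 16 receptors, 1 of 5 NCED genes and 5 of 6 8'-hydroxylases. It was also seen for 12 of 24 galactinol, raffinose and stachyose synthases, 5 of 9 peroxygenases, 7 of 13 diacylglycerol acyltransferases and 10 of 21 vacuolar sorting and processing genes. Calls were 0 of 39 for pollen and anther (10 at an unadjusted p under 0.05), 4 higher and 4 lower of 38 for floral genes, 7 higher of 64 for fibre and trichome, and 10 higher of 14 for the secondary wall. Over all genes tested the shares were 3.92% higher and 1.78% lower. The secondary wall genes summed to 45.3 to 95.3 FPKM in the transgenic libraries and 10.97 to 12.5 FPKM in the wild type. The part of any of these tissues in the seed set was not tested.

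In the authors' deposited table, 28 of the 104 members carried the flag for a change, 27 lower and 1 higher in the transgenic libraries, against 5.12% of all rows (1.93% lower and 3.18% higher). The flag in the authors' deposited table marks p under 0.05 with a change of at least 2-fold, and 25 of the 28 also had q under 0.05 there. Of the 28 in the authors' deposited table, 21 were among the 31 with the wide wild-type spread, and all 3 members called by limma were included. For the 2S albumin gene GH_D01G0721 the authors' deposited table gives a log2 fold change of -9.31 with q = 1.89e-15.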

How the data were processed

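FPKM of 72761 genes in 3 transgenic and 3 wild-type libraries were deposited by the authors as 1 table. Per the file headers it also holds the authors' fold change (a ratio of group means), its log2, a p-value and a q-value, with no test named. Aligner, counting program, annotation and genome build are not given in the sources used here. Values of 1e-04 were read as 0.

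Differences were computed with limma 3.58.1 (trend and robust, R 4.3.3) on log2(FPKM + 1) for 43837 genes with a group mean of at least 1 FPKM, two-sided, with Benjamini-Hochberg adjustment over all of them; the fit was tested on simulated data. FPKM were not rescaled. Other pseudocounts, filters, scalings and left-out libraries are given in the closing section. Depth is unknown, and 3 samples per group limit the precision.

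Members, types and lists were chosen with earlier results of these data known. Members named are those called, the 3 highest in each of 9 families, the 5 largest and 5 smallest differences, and the 12 highest with a 10-fold wild-type spread; other names were chosen after their values were seen. Pathway and tissue lists were searched in the descriptions, and the root list matched 0 genes.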

Additional observations from a re-analysis of the deposited data

How the results depend on the processing

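Limma called 2500 genes and 3 members. With a pseudocount of 0.1, 10 members were called (9 lower), and with upper quartile scaling 5. How many of all genes were called under these settings is not given here, so the rise cannot be set against the whole table. Without 1 library the counts ranged from 289 to 2552 genes and from 0 to 18 members; the cause was not tested. Without the filter 3 members were called, GH_D01G0721 then being lost (adjusted p = 0.0583). Genes called were 1679 without the filter. Median-of-ratios and upper quartile scaling moved the share of higher calls to 53.8% and 57.3%, against 68.8%, and the median of all genes, 0.08 on the log2 scale, to 0.00 and 0.02. The replicate number as a block gave 1532 genes and 2 members, losing GH_D08G0714 (limma adjusted p = 0.0863). In their deviations from the group means, same-numbered libraries correlated at 0.0136, 0.0261 and 0.074. Differently numbered libraries of the 2 groups correlated at -0.084 to 0.0582. Such weak correlations over all genes cannot show whether the numbers pair the libraries.

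For the 34 named members, 380 of 436 recomputed values kept direction and side of the threshold, 15 lost a call, 18 gained one and 23 in 8 genes changed sign. Under median-of-ratios scaling GH_A11G0964, GH_A10G1801, GH_A04G0301 and GH_D05G3777 stood at -0.060, -0.069, -0.076 and -0.087, and under upper quartile scaling at -0.037, -0.041, -0.048 and -0.060. Without 1 library the ranges were -0.17 to 0.18 (GH_A11G0964), -0.089 to 0.16 (GH_A10G1801), -0.042 to 0.059 (GH_A04G0301), -0.040 to 0.048 (GH_D05G3777), -0.14 to 0.36 (GH_A11G0963), -0.51 to 0.23 (GH_D04G1805), -0.20 to 0.84 (GH_D12G0105) and -1.27 to 0.43 (GH_A08G0476). Depth is unknown, so values near 0 carry no counting error here.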
